A study of Homo sapiens with 6 samples.

Results

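To see which genes carried NONO, H3T11ph and H3K27ac in unperturbed triple-negative breast cancer cells, the 3 CUT&Tag peak lists of control cells were laid over 19122 protein-coding genes of chromosomes 1 to 22. A gene was given a target when a listed region lay within 1 kb of either of its ends, which sorted the genes into 8 classes. At least 1 target was present at 16197 of the 19122 genes. All 3 lists came from MDA-MB-231, an established human line of metastatic triple-negative breast cancer, in cells labelled NC (the control) with the genotype label WT and no knockdown. The series holds 6 libraries, and the other 3, from knockdown cells, were not used. Each target had 1 library, so no difference below has a replicate check and no p-value is given. The intervals quoted are 95% Wilson, Newcombe or order-statistic intervals that cover counting error only, and genes are not independent replicates, since neighbours can share a region.

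NONO is an RNA- and DNA-binding protein of the DBHS family that sits in paraspeckles and also takes part in transcription, splicing and DNA repair. H3T11ph is histone H3 phosphorylated on a threonine of its tail, a mark attributed in cancer cells to nuclear PKM2, the pyruvate kinase isoform that can also act on proteins. H3K27ac is the acetylated lysine that marks active promoters and enhancers, written by acetyltransferases such as p300 and CBP. In CUT&Tag an antibody tethers the transposase Tn5 to the target, and the DNA cut out nearby is sequenced, so a listed region is a stretch with more reads than the caller's background.

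The lists differed greatly in length and form. H3K27ac had 556239 regions, NONO had 87191 and H3T11ph had 41692. Most H3K27ac regions (79.1%) had the smallest width of that list, 112 bp, and 94.5% of NONO regions had the smallest width of theirs, 269 bp. Only 1.83% of H3T11ph regions were at their smallest width, 111 bp. A −log10 q of at least 5 was reached by 90.2% of NONO, 86.3% of H3T11ph and 26.6% of H3K27ac regions. The background density that the fold and −log10 p columns imply, under the formulas of the peak caller MACS2, was 3.34 fragments per kb in the NONO library, 3.35 in the H3T11ph library and 7.46 in the H3K27ac library. The part of this difference in the class sizes was not tested, and class sizes with lists cut to equal length are given beside those of the full lists.

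Promoters of 8 genes are shown first, as examples of the sequences compared across classes below. They are the 250 bases before the RefSeq start site (GRCh38.p14, 5′ to 3′ on the gene's strand), with the GC box letters GGGCGG, the CCAAT box letters and the TATA box letters TATAAA on either strand in capitals, where adjoining matches run together. The first 6 genes are a choice from 12 genes with all 3 targets that a rule on fold named. In these 6, all 3 lists had a region inside the 250 bases. They were picked by hand, so this does not describe the 12. In UXS1 and KLF6, also among the 12, the NONO region lay outside the 250 bases, 267 and 568 bp from the start site. The strongest regions of all 3 lists in TUBB and CAMK1D, and of NONO and H3K27ac in TMEM14B, lay beyond the 3′ end. ANKRD13A had no RefSeq start site at hand. CCN2, a secreted YAP target, had H3T11ph and H3K27ac inside the 250 bases and its NONO region inside the gene. EYS, a retinal gene, was the second longest gene with no target. It is a single example and does not stand for its class, for which the promoter comparison below is void.

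PLA2G6 (chr22:38181831-38182080, minus strand): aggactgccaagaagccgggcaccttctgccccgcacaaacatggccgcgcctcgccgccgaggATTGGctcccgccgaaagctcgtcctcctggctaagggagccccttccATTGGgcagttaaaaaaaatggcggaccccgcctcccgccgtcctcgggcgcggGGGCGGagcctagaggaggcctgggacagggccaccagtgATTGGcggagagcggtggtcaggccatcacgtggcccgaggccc
NUMA1 (chr11:72080543-72080792, minus strand): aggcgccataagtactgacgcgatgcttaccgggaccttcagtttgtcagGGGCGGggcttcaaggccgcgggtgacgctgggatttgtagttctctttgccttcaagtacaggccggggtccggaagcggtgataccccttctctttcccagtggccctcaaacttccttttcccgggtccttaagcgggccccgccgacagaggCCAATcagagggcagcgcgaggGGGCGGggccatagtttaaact
CCNL2 (chr1:1399336-1399585, minus strand): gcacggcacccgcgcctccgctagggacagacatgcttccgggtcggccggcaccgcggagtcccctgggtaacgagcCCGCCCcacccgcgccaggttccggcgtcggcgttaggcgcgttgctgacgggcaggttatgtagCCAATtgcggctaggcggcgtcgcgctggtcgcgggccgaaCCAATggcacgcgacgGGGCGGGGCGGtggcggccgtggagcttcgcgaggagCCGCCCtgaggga
RBM25 (chr14:73058284-73058533, plus strand): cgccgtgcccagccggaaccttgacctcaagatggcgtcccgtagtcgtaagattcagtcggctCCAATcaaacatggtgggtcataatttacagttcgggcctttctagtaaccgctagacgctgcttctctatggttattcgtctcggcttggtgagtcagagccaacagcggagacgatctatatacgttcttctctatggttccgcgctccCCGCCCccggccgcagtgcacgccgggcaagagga
TCF3 (chr19:1652616-1652865, minus strand): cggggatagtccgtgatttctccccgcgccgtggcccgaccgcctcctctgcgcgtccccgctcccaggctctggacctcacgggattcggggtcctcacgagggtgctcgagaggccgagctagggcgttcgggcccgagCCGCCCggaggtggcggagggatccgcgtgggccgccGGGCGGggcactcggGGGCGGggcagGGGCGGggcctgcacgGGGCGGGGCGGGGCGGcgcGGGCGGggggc
TMBIM6 (chr12:49741307-49741556, plus strand): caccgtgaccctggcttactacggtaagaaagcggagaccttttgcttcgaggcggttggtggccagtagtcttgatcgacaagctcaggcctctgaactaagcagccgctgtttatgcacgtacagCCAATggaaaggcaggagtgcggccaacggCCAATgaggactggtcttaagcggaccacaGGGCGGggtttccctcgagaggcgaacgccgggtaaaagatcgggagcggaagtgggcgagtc
CCN2 (chr6:131951373-131951622, minus strand): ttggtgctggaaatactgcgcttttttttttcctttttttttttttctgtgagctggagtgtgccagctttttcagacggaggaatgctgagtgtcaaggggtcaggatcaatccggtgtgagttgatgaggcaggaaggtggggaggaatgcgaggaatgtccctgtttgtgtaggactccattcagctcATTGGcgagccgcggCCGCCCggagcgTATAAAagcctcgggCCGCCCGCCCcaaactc
EYS (chr6:65707227-65707476, minus strand): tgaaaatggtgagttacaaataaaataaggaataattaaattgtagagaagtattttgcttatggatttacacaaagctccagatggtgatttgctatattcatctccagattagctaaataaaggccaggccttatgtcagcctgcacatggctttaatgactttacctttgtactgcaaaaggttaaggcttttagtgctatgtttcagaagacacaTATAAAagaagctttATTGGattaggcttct

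The GC content of these bases was 79.6% in TCF3, 73.6% in CCNL2, 68.4% in PLA2G6, 60.4% in NUMA1, 58.4% in TMBIM6, 56.4% in RBM25, 53.2% in CCN2 and 34.0% in EYS. GGGCGG, the GC box, occurred 8 times in TCF3 and 4 times in CCNL2, and was absent from EYS. In TMBIM6 all 250 bases lay inside a region of each list, whereas in CCN2 only 5 of them lay inside an H3K27ac region.

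With the lists as deposited, H3K27ac was the commonest target at gene ends and H3T11ph the rarest. H3K27ac was found at 15048 genes (78.7%), NONO at 5522 (28.9%) and H3T11ph at 3473 (18.2%). The largest class, with 8671 genes (45.3%), had H3K27ac alone. NONO with H3K27ac followed with 3339 genes (17.5%), no target with 2925 (15.3%), H3T11ph with H3K27ac with 1742 (9.11%) and all 3 targets with 1296 (6.78%). The classes without H3K27ac were small, with 714 genes for NONO alone (3.73%), 262 for H3T11ph alone (1.37%) and 173 for NONO with H3T11ph (0.905%). The order of the targets and classes was different with lists of equal length. With each list cut to the 41692 regions of the shortest, H3K27ac was found at 5156 genes, H3T11ph at 3473 and NONO, now the rarest, at 2945. No target was then the largest class with 10469 genes, followed by H3K27ac alone with 3050, H3T11ph alone with 1586, NONO alone with 1480, H3T11ph with H3K27ac with 1072, NONO with H3K27ac with 650, NONO with H3T11ph with 431 and all 3 with 384. No target was also the largest class at a −log10 q of 5 or more, with 6818 genes against 5191 for H3K27ac alone, and NONO alone then had 1841 genes and H3T11ph alone 692. The percentages above are of all 19122 genes and serve as the background for every gene list below.

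**Figure D1:**
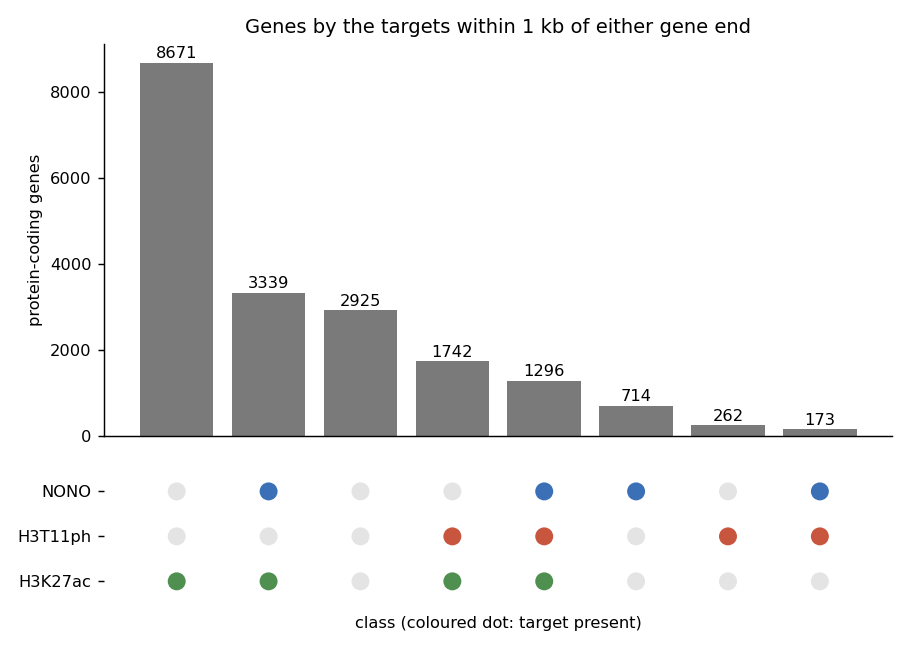
Number of protein-coding genes (y axis) in each of the 8 classes (x axis), ordered by size, with coloured dots below each bar for the targets present. The class of H3K27ac alone holds 8671 genes, the class of all 3 targets 1296 and the class of NONO with H3T11ph 173.

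A gene with 1 of the targets had each of the others more often than a gene without it. NONO was found at 42.3% of the genes with H3T11ph (1469 of 3473, 40.7% to 43.9%) and at 25.9% of the genes without it (25.2% to 26.6%). The difference was 16.4 percentage points (14.6 to 18.2), and 9.86 points with the 3 lists at equal length and 5.22 points with only regions at least 2 times the narrowest width of their list. H3K27ac was found at 87.5% of genes with H3T11ph and 76.7% of genes without it, a difference of 10.7 points (9.41 to 11.98). It was found at 83.9% of genes with NONO and 76.6% of genes without NONO, a difference of 7.37 points (6.15 to 8.56).

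Genes in crowded stretches of chromosome have more chances to share a region, so the meeting of NONO and H3T11ph was counted again among genes alike in density, length and acetylation. In 5 groups of genes split by the number of other genes within 500 kb, the difference lay between 12.5 and 19.6 points, highest in the densest group. In 5 groups split by gene length it lay between 12.6 and 17.9 points. It was 14.9 points (12.9 to 16.8) among genes with H3K27ac and 20.1 points (15.5 to 24.99) among genes without. By the width of H3K27ac it was lowest, at 8.96 points (4.60 to 13.4), where the widest region was from 500 to below 1000 bp. Among the 12091 genes with no other gene end within 2 kb it was 16.2 points (13.8 to 18.6). Only among the 94 genes with an H3K27ac region of 2500 bp or more did the interval reach below 0, at 19.002 points (−1.12 to 37.1).

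Meeting at a gene did not mean lying on the same bases. NONO and H3T11ph regions shared at least 1 bp at 608 of the 1469 genes with both (41.4%, 38.9% to 43.9%). NONO and H3K27ac did so at 44.6% of 4635 genes and H3T11ph and H3K27ac at 52.2% of 3038 genes. In the class of all 3 targets, 317 of 1296 genes (24.5%, 22.2% to 26.9%) had a base held by every list, although at 906 of them (69.9%) all 3 lay within 1 kb of the same end.

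The start site was the favoured end for every target, and for H3T11ph most of all. A start site from RefSeq was at hand for 15100 of the genes, and it lay within 1 kb of a gene end for 91.8% of them. H3T11ph lay within 1 kb of the start site in 15.1% of these genes and within 1 kb of the 3′ end in 5.14%. NONO did so in 20.6% and 12.4%, and H3K27ac in 68.0% and 41.6%. All 3 were within 1 kb of the start site in 657 genes and within 1 kb of the 3′ end in 134. Of the 1078 genes of the all-3 class with a start site, 627 (58.2%, 55.2% to 61.1%) had every target there.

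Base by base the 3 targets had different shapes around the start site. H3T11ph was narrow and stood highest 100 bp upstream, where 4.86% of genes were covered, 14.4 times the mean share at 4 to 5 kb away. NONO was also highest 100 bp upstream, at 5.73% of genes, but only 4.03 times its distant share. H3K27ac was highest at the start site itself, at 27.3% of genes and 7.02 times its distant share, and was broader on the gene's side, with 18.9% of genes covered 500 bp inside against 12.9% at 500 bp upstream. At the 3′ end no target exceeded 1.34 times its distant share anywhere within 5 kb, and the share at the end itself was below the distant share, at 0.841 of it for NONO, 0.717 for H3T11ph and 0.556 for H3K27ac.

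**Figure D2:**
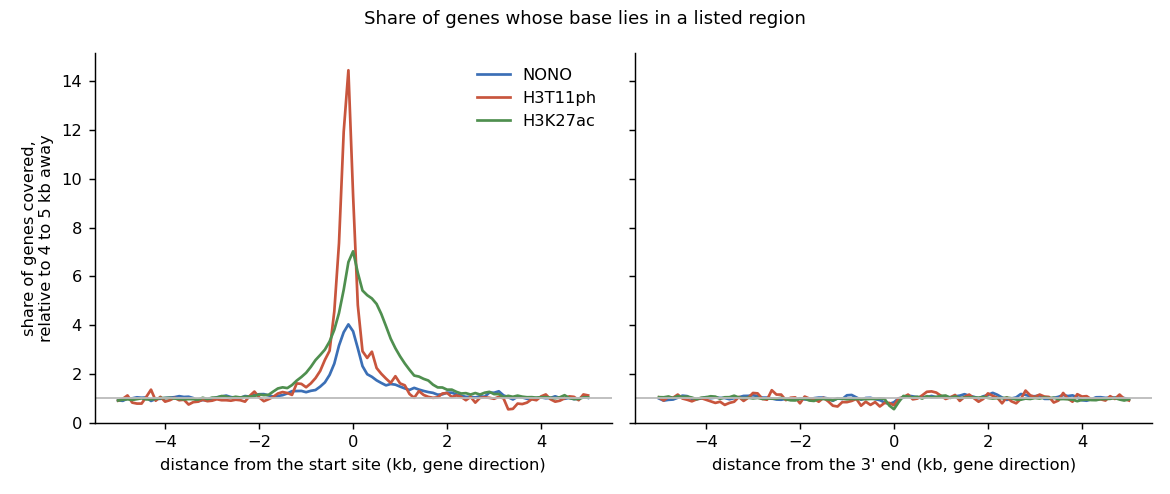
Share of 15100 genes whose base at each distance (x axis, kb in the direction of the gene) lies in a region of each list, divided by the mean share at 4 to 5 kb (y axis), around the start site (left) and the 3′ end (right). H3T11ph rises 14.4 times, H3K27ac 7.02 times and NONO 4.03 times near the start site, and no line exceeds 1.34 around the 3′ end.

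Acetylation was wider at genes that also had another target, more so with H3T11ph than with NONO. The widest H3K27ac region at a gene had a median of 189 bp (180 to 198) in the class of H3K27ac alone, 242 bp (228 to 256) with NONO, 338 bp (321 to 355) with H3T11ph and 359.5 bp (336 to 388) with all 3. The medians of the last 2 classes had overlapping intervals. An H3K27ac region of 1 kb or more was present at 6.78% of genes with H3K27ac alone (6.27% to 7.33%), 8.63% with NONO, 13.9% with H3T11ph and 18.4% with all 3 (16.4% to 20.6%). Conversely, 41.4% of the genes with H3K27ac alone and 18.2% of the genes with all 3 had no H3K27ac region wider than 112 bp. The median was higher with all 3 targets than with H3K27ac alone on 22 of the 22 chromosomes. It was higher with H3T11ph and H3K27ac than with NONO and H3K27ac on 20 of 22. With only regions at least 2 times the narrowest width of their list, 24 genes had all 3 targets and the difference in medians between all 3 and H3K27ac alone was 3.5 bp (−156 to 531) in place of 170.5 bp.

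Read the other way, both NONO and H3T11ph became commoner with each step of H3K27ac width. H3T11ph was found at 10.7% of the 4074 genes with no H3K27ac and at 11.9% of the 5306 genes whose widest region was 112 bp. The share was 21.3% of genes with a widest region from 113 to below 500 bp, 27.3% from 500 to below 1000 bp, 34.5% from 1000 to below 2500 bp and 47.9% (38.1% to 57.9%) of the 94 genes with wider regions. NONO went from 21.8% through 24.9%, 32.5%, 35.1% and 38.1% to 47.9% over the same steps. The smallest step for H3T11ph was the first, from no H3K27ac to the narrowest region.

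**Figure D3:**
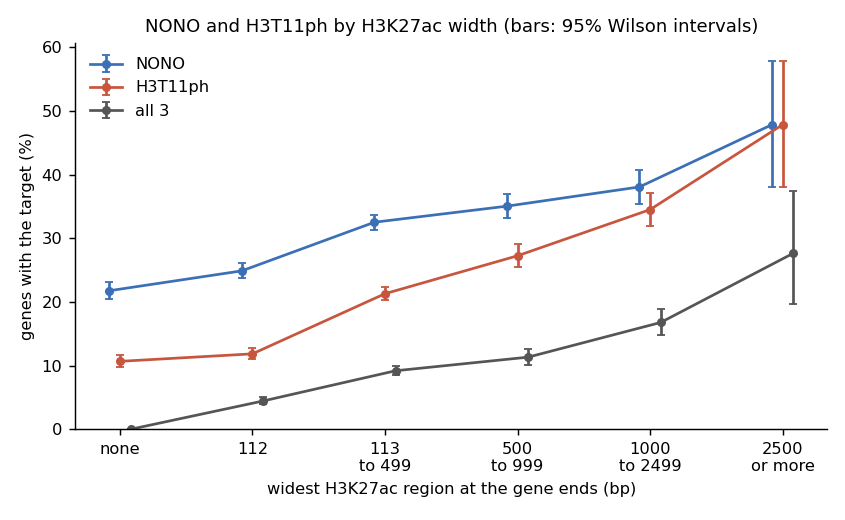
Share of genes with NONO, with H3T11ph and with all 3 targets (y axis, percent, bars are 95% Wilson intervals) by the width of the widest H3K27ac region at the gene (x axis, bp). NONO goes from 21.8% to 47.9%, H3T11ph from 10.7% to 47.9% and all 3 from 4.45% at the narrowest regions to 27.7%.

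The strength of NONO and H3T11ph regions was lowest where the 2 occurred together without H3K27ac. Fold is the caller's enrichment over background and is compared within a list only. The median fold of the strongest NONO region was 20.03 with NONO alone, 15.3 with H3T11ph, 24.7 with H3K27ac and 22.3 with all 3. For H3T11ph it was 15.7 alone, 9.88 with NONO, 15.7 with H3K27ac and 14.2 with all 3. The intervals in the class of NONO with H3T11ph were 11.6 to 20.9 for NONO, which overlaps that of NONO alone (17.9 to 22.6), and 8.37 to 12.2 for H3T11ph, below those of the other 3 classes. For H3K27ac the median fold was 5.97 alone, 6.47 with NONO, 7.22 with H3T11ph and 7.15 with all 3.

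NONO was commoner in gene-rich parts of the genome. The median gene had 12 other protein-coding genes within 500 kb. The median was 24 (21 to 27) for NONO with H3T11ph, 19 (18 to 21) for NONO alone, 18 (16 to 19) for all 3 and 15 (14 to 16) for NONO with H3K27ac. In the classes without NONO it was 14 (11 to 16) for H3T11ph alone, 11 for H3T11ph with H3K27ac, 11 for no target and 10 for H3K27ac alone. From the sparsest to the densest group of genes NONO rose from 19.1% to 42.6% and H3T11ph from 15.3% to 22.8%, while H3K27ac went from 78.5% to 76.5%. The median number of neighbours was higher with all 3 targets than with H3K27ac alone on 18 of 22 chromosomes, lower on 1 and equal on 3. Another gene end lay within 2 kb at 54.2% of the genes with all 3 targets, 33.0% with H3K27ac alone and 22.7% with none, against 36.8% of all genes. Among genes with no such neighbour, the gap in medians between all 3 targets and H3K27ac alone shrank from 8 to 2 genes.

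**Figure D4:**
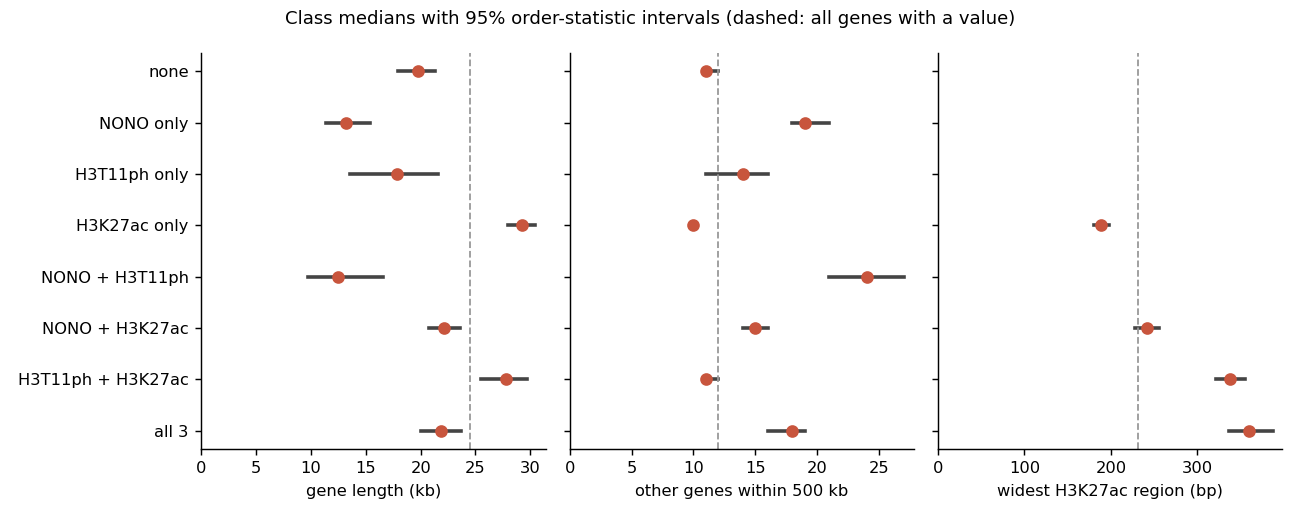
Median gene length (kb), number of other genes within 500 kb and widest H3K27ac region (bp) on the x axes for each class on the y axis, with 95% order-statistic intervals and the median of all genes dashed. H3K27ac alone has the longest genes (29.3 kb) and fewest neighbours (10), and all 3 targets have the widest acetylation (359.5 bp).

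Chromosome 19, whose genes had the most neighbours of the 22 chromosomes (median 30), stood out for NONO with H3T11ph. It held 7.59% of all genes but 30.1% (52 of 173, 23.7% to 37.3%) of the genes with NONO and H3T11ph and no H3K27ac, 12.9% of the genes with NONO alone and 12.9% of the genes with all 3. It held 5.59% of the genes with H3K27ac alone. NONO was found at 45.1% of its genes, 40.5% on chromosome 17, 39.8% on chromosome 16 and 13.7% on chromosome 18. The class of all 3 targets took 11.5% of the genes of chromosome 19, 10.9% on chromosome 17, 9.13% on chromosome 16 and 2.96% on chromosome 18.

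Genes with NONO were shorter than genes with H3K27ac alone. The median length over all genes was 24.5 kb. It was 29.3 kb (28.0 to 30.4) with H3K27ac alone and 27.8 kb (25.5 to 29.7) with H3T11ph and H3K27ac. It was 22.1 kb (20.7 to 23.6) with NONO and H3K27ac and 21.9 kb (20.1 to 23.7) with all 3. The shortest classes were NONO with H3T11ph at 12.4 kb (9.68 to 16.6) and NONO alone at 13.2 kb (11.4 to 15.4), and genes with no target had 19.7 kb. The shorter genes of the class of NONO with H3K27ac, against H3K27ac alone, were seen on 18 of 22 chromosomes. Those of the class of all 3 were not, with a lower median than H3K27ac alone on 10 chromosomes and a higher one on 12. Among genes with no other gene end within 2 kb the gap between those 2 classes was −3.10 kb with an interval of −6.81 to 2.22.

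Among the 4 classes with H3K27ac, promoters of the all-3 class were the richest in GC boxes. Their median for CpG dinucleotides was also the highest, with an interval that overlapped that of H3T11ph with H3K27ac. This comparison used the 300 bases around each start site (250 before, 50 after) and leaves out chromosome 8, which the RefSeq promoter table used here does not cover. In the 4 classes with H3K27ac between 82.3% and 85.8% of genes had a promoter sequence. In the 4 classes without H3K27ac fewer than 80% did (75.8% to 79.1%), so the check is void for them. The median observed over expected CpG was 0.769 with H3K27ac alone, 0.806 with NONO, 0.836 with H3T11ph (0.823 to 0.847) and 0.850 with all 3 (0.835 to 0.865), against 0.765 for all promoters. GGGCGG on either strand was present in 58.4% of promoters with H3K27ac alone, 65.0% with NONO, 67.2% with H3T11ph and 76.2% with all 3 (73.5% to 78.6%), against 58.7% of all 15100 promoters. CCAAT, the letters of the CCAAT box, was present in 34.9%, 35.4%, 37.4% and 41.1% of the same classes, against 36.0% of all. TATAAA, the letters of the TATA box, was present in 9.39%, 6.80%, 6.96% and 6.68%, against 9.83% of all. TGACTCA, the letters AP-1 binds, was present in 3.75%, 3.68%, 3.20% and 2.97%, against 3.60% of all. TGACGTCA, the letters CREB binds, was present in 2.77%, 2.97%, 3.48% and 3.43%, against 2.62% of all. A match of letters is a description of the sequence and not a bound site, and the classes also differed in GC content, with medians of 62.7%, 64.7%, 64.3% and 66.3%.

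The genes with the highest fold in all 3 lists came from many functions. The rule took genes whose regions shared bases in every pair of lists (325 of the 1296) and ranked them by the lowest of their 3 fold percentiles. UXS1, which makes UDP-xylose for proteoglycan synthesis, came first, with a fold of 162 for NONO, 51.0 for H3T11ph and 11.6 for H3K27ac in regions 267, 106 and 166 bp from its start site on chromosome 2. PLA2G6, a calcium-independent phospholipase, had folds of 105.3, 56.8 and 14.9, all within 90 bp of its start site. TMBIM6, an endoplasmic reticulum protein that limits cell death, had 70.7, 56.9 and 24.5 in regions that all covered its start site, the H3K27ac region being 1274 bp wide. RBM25, a splicing regulator, had 104.7, 37.2 and 7.14, and CCNL2, a cyclin tied to splicing, had 82.1, 53.9 and 7.59. TCF3, the E-protein transcription factor, had 194, 36.0 and 10.5, and its strongest H3T11ph region lay 42557 bp from the start site, near the 3′ end. KLF6, a zinc finger transcription factor, had 114, 37.6 and 63.9 with an H3K27ac region of 1747 bp across its start site.

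In several of these genes the strong regions were not at the start site. TUBB, a beta-tubulin, had NONO at a fold of 154, H3T11ph at 38.5 and H3K27ac at 13.0, all between 5337 and 5798 bp from the start site of a gene 5.07 kb long. CAMK1D, a calmodulin-dependent kinase, had folds of 119, 43.3 and 7.32, all beyond the 3′ end of a gene of 486 kb. TMEM14B had its strongest NONO (100.04) and H3K27ac (78.0) regions beyond its 3′ end and its strongest H3T11ph region (52.4) 411 bp from the start. NUMA1, a spindle protein, had its strongest NONO region (87.1) at the 3′ end, whereas H3T11ph (46.6) and H3K27ac (15.3) lay at the start site. ANKRD13A, whose start site was not in the table, had 88.9, 40.2 and 24.3 with another gene end within 2 kb.

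The genes singled out by the study fell in several classes. KAT5, which encodes the acetyltransferase TIP60, was in the class of all 3 and had a base held by every list, with folds of 6.71 for NONO, 26.8 for H3T11ph and 6.68 for H3K27ac, although another gene end lay within 2 kb. PKM, which encodes PKM2, had NONO at 26.5 and H3K27ac at 19.6 and no H3T11ph region within 1 kb. Its NONO region lay beyond the 3′ end, 33020 bp from the start site, and that H3K27ac region 390 bp from the start site. Of 9 genes that the study lists as lowered by both knockdowns, CCN2 alone had all 3, with folds of 35.7, 16.1 and 9.21. ADAMTSL4 (13.1 and 9.90) and FERMT2 (5.40 and 12.7) had NONO with H3K27ac, and MATN2 had H3T11ph (6.49) with H3K27ac (12.3). In MATN2 these regions lay at opposite ends of a gene of 168 kb. In ADAMTSL4 the quoted regions lay 239 and 10531 bp from the start site. IL11 (4.69), RCN1 (31.3) and MCAM (9.77) had H3K27ac alone, and VDAC1 (7.26) and CDKN1A (27.4) had NONO alone. The quoted regions of IL11 and VDAC1 lay near the 3′ end, 7000 and 98647 bp from the start site. The study chose that list on these cells, so it is not independent evidence. NONO itself lies on chromosome X and was outside the rule.

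The classes without H3K27ac held genes whose strong regions stood by themselves. With NONO alone, GAR1, an H/ACA ribonucleoprotein subunit, had a fold of 262 at 33 bp from its start site, above any NONO value in the all-3 genes named here. PRR35 (226), WDR45B (190) and SPESP1 (182) followed. With H3T11ph alone, ALOX12B, an epidermal lipoxygenase, had a fold of 86.7, TMEM121 had 84.0, HRH3 76.7 and OCM2 61.9, each in 1 region of 112 to 120 bp. With both and no H3K27ac, TAS2R31, a bitter taste receptor, had 85.3 for NONO and 37.2 for H3T11ph. GIMAP5 (123 and 32.1), CEBPE (72.1 and 29.9) and CROCC2 (54.4 and 47.4) came next.

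Among the genes with H3K27ac, FLNC, a filamin, had H3T11ph at 62.9 with H3K27ac at 16.3 and no NONO, as did DDX50 (73.0 and 17.4), ZNF708 (79.0 and 16.7) and KRT80 (97.1 and 21.3). With NONO and H3K27ac, CHCHD3, a mitochondrial cristae protein, had 150 for NONO across its start site and 16.7 for H3K27ac, followed by RGS10 (144 and 14.6), ZNF611 (144 and 13.3) and N4BP2 (139 and 20.3). That H3K27ac region of CHCHD3 lay beyond the 3′ end, 297843 bp from the start site. The quoted regions of ZNF611 and N4BP2 also lay at opposite ends. Their NONO regions were 33132 and 133887 bp from the start site, and their H3K27ac regions 0 and 267 bp. With H3K27ac alone, DCP2 and MCC shared 1 region with a fold of 99.1, and MIEF2 had 72.5 and ARAP2 and CNTF 72.2 each. The longest genes without a target were MACROD2 (2058 kb), EYS (1987 kb) and ROBO2 (1743 kb), none of which had another gene midpoint within 500 kb.

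Markers of the line were checked next. H3K27ac was present at 14 of 15 mesenchymal or basal genes and at 12 of 15 luminal or epithelial genes, against 78.7% of all genes. The 7 mesenchymal or basal markers used for the check all had it. VIM (vimentin) had all 3 targets, with an H3K27ac region of 4305 bp and folds of 13.0 for NONO, 5.70 for H3T11ph and 66.6 for H3K27ac. Its quoted NONO region lay beyond the 3′ end, 9757 bp from the start site, and no base was held by every list. FOSL1, an AP-1 subunit, had all 3 at 44.5, 7.96 and 15.3. AXL, a receptor kinase, had NONO with an H3K27ac region of 7230 bp. CD44 (1651 bp), CAV1 (1640 bp), EGFR (1132 bp) and ZEB1 (845 bp) had H3K27ac alone. Among luminal markers, ESR1 and CDH1 had no H3K27ac region wider than 112 bp, EPCAM had 1 NONO region at a fold of 3.77, and ELF5 had no target. GATA3 (798 bp), KRT8 and KRT18 (671 bp in 1 shared region) and FOXA1 (391 bp) had wider acetylation. Of lymphoid markers, PTPRC and MS4A1 had no target and CD3E had H3K27ac of 241 bp. CDKN2A and CDKN2B, which are known to be deleted in this line and were looked up after the values of other genes had been seen, had no target.

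H3T11ph was found at 0 to 48.6% of the members of the lists with 10 or more genes. Splicing factors of the hnRNP and SR families had it at 18 of 37 genes (48.6%), paraspeckle proteins at 5 of 11, canonical histones at 31 of 69 (44.9%) and cytosolic ribosomal proteins at 30 of 80 (37.5%), against 18.2% of all genes. At the other end were luminal or epithelial genes (0 of 15), clustered protocadherins (1 of 53), olfactory receptors (15 of 391), keratins (3 of 55), HOX genes (2 of 39) and neuronal channels and receptors (6 of 80). These lists are given as counts beside the background and were not tested as sets.

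Ribosomal protein genes, which in the main are short and strongly transcribed in growing cells, had all 3 targets at 16 of 80. The interval was 12.7% to 30.05%, against 6.78% of all genes. The list also holds related genes such as RPL10L and RPL3L. RPL3L was among the 16, with no H3K27ac region wider than 112 bp. RPL15 had folds of 94.8, 4.37 and 18.5, RPLP0 had 81.6, 18.2 and 10.99, RPS2 had 67.1, 3.94 and 4.60, and RPL4 had 12.1, 30.6 and 31.9, in the order NONO, H3T11ph and H3K27ac. H3K27ac was at 77 of the 80 genes, and RPL18, on chromosome 19, had NONO with H3T11ph and no H3K27ac. Another gene end lay within 2 kb at 37 of the 80.

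Splicing genes had more H3T11ph than all genes, while their NONO share, 12 of 37 (32.4%), was near the 28.9% of all genes. Of 37, 12 (32.4%) had H3T11ph with H3K27ac and no NONO, against 9.11% of all genes. All 3 targets were at 5 (13.5%), against 6.78%. SRSF3 had folds of 84.8, 44.9 and 15.6 and SRSF2 had 78.7, 9.83 and 7.11. HNRNPK had H3T11ph at 26.2 and H3K27ac in a region of 2613 bp with no NONO. Among genes for paraspeckle proteins, the partners of NONO, SFPQ had NONO at 152 with H3K27ac and no H3T11ph, PSPC1 had H3T11ph at 30.05 without NONO, and DAZAP1 had all 3.

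Canonical histone genes, which lie in clusters of near-identical copies, had all 3 at 12 of 69 (17.4%, against 6.78% of all genes). H3T11ph with H3K27ac was at 17 (24.6%, against 9.11%) and no target at 12 (17.4%, against 15.3%). H4C14 had folds of 7.20, 16.1 and 7.80. Another gene end lay within 2 kb at 53 of the 69, so 1 region could count for several of them, and how reads of near-identical copies were placed is not given in the sources used here.

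AP-1 genes, early responders to growth signals, had all 3 targets at 4 of 11 (36.4%, against 6.78% of all genes). They were JUN (5.89, 9.26 and 20.5), JUNB (38.5, 14.6 and 10.1), JUND (23.2, 3.002 and 10.9) and FOSL1. YAP and TEAD targets had NONO at 9 of 14 (64.3%, against 28.9% of all genes) and all 3 at CCN1 (25.95, 19.01 and 23.02) and CCN2. Their median widest H3K27ac region was 818 bp. Mesenchymal or basal genes had NONO at 7 of 15 (46.7%) and H3T11ph at 4 of 15 (26.7%, against 18.2%), among them MET (21.9). Their median widest H3K27ac region was 845 bp. Luminal or epithelial genes had NONO at 6 of 15 (40%) and a median of 293 bp. In these list medians a gene without H3K27ac counts as 0 bp, unlike in the class medians above. H3K27ac was present at 14 of 15 mesenchymal or basal and 12 of 15 luminal or epithelial genes, so the 2 medians differ in presence as well as width.

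Metabolic and cell cycle genes were counted next, beside the shares of all genes. Glycolysis genes had all 3 at 0 of 17 (0% to 18.4%), against 6.78% of all genes. H3T11ph was at 3 (17.6%, near the 18.2% of all genes), which were LDHA (101), TPI1 (55.7) and PGAM1 (8.10), none with NONO. GAPDH had NONO at 56.4 with an H3K27ac region of 2528 bp and no H3T11ph. Nuclear genes of the respiratory chain had NONO at 26 of 73 (35.6%, against 28.9%) and H3T11ph at 18 (24.7%). All 3 were at 5 of them (6.85%), near the share of all genes. Replication licensing and cyclin genes had all 3 at 4 of 20 (20%, 8.07% to 41.6%), among them PCNA (37.3, 11.04 and 6.16) and MCM3 (41.7, 23.3 and 11.1). Of 12 acetyltransferase genes, KAT5 alone had all 3 (8.33%), and EP300 had H3T11ph at 19.3 with H3K27ac.

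Sensory receptor and neuronal genes, which breast cells do not normally express, were often in the class of no target. Olfactory receptors had no target at 173 of 391 genes (44.2%, against 15.3% of all genes) and all 3 at 0 (against 6.78%). H3K27ac was nonetheless listed at 188 of them, and at 149 of these 188 no region was wider than 112 bp. Taste receptors had no target at 16 of 28 (57.1%). Neuronal channels and receptors had no target at 28 of 80 (35%), and all 3 at GRIN1 alone (14.7, 14.2 and 6.14). Clustered protocadherins had all 3 at 0 of 53 (interval up to 6.76%) and keratins at 1 of 55 (KRT14, 0.322% to 9.61%). HOX genes had all 3 at 2 of 39 (1.42% to 16.9%), collagens at 2 of 42 (1.32% to 15.8%) and integrins at 1 of 26 (0.682% to 18.9%). The intervals of keratins, HOX genes, collagens and integrins held the 6.78% of all genes. Zinc finger genes of chromosome 19 had all 3 at 18 of 246 (7.32%, 4.68% to 11.3%), against 11.5% of all genes of that chromosome.

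**Figure D5:**
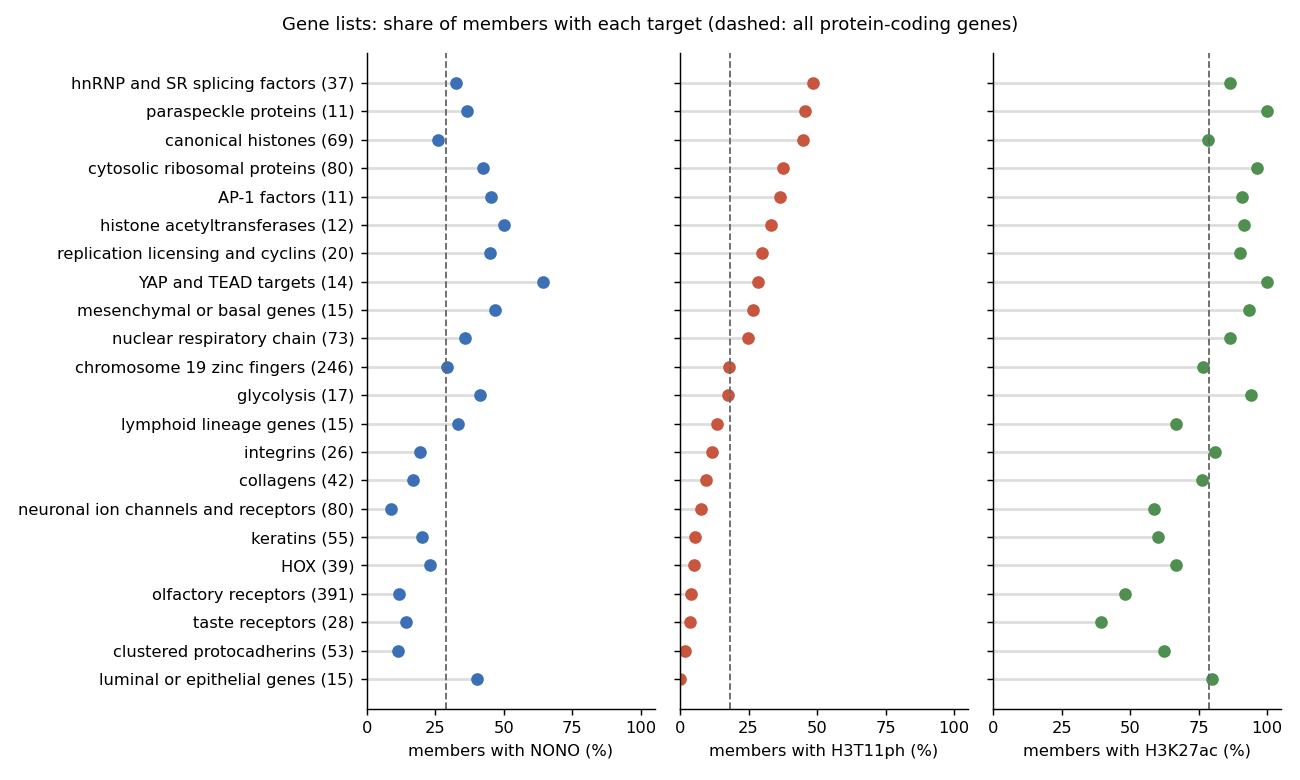
Share of the members of 22 gene lists (y axis, number of members in brackets) with NONO, H3T11ph and H3K27ac (x axes, percent), with the share of all protein-coding genes dashed. For H3T11ph the lists range from 0 of 15 luminal or epithelial genes to 48.6% of hnRNP and SR splicing factors.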

How the data were processed

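CUT&Tag libraries of NONO, H3T11ph and H3K27ac from control MDA-MB-231 cells, 1 per target, were analysed as 1 peak list per library. The submitters' processing notes name hg38, FastQC 0.11.9, cutadapt 1.18, SAMtools 1.3.1 and MACS2 2.1.1.20160309. The aligner and any control library are not given in the sources used here. The deposited narrowPeak columns, which carry no header, hold a fold enrichment over the caller's background (a ratio), a −log10 p, a −log10 q and an integer score. The authors had already thresholded the lists, and the lowest −log10 q was 1.30 for NONO, 1.32 for H3T11ph and 1.30 for H3K27ac. Read totals are not used here, so depth is known only from the background density recovered from the deposited fold and −log10 p values.

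Gene positions, start sites and promoters came from RefSeq tables of GRCh38.p14. A gene had a target when a region lay within 1 kb of either gene end. Neighbours were other protein-coding genes with a midpoint within 500 kb. Start sites and promoters covered 79.0% of genes and none on chromosome 8. Each class was described by counts, shares with 95% Wilson intervals, differences with Newcombe intervals and medians with order-statistic intervals. No p-value was computed, because each target had 1 library and genes are not replicates. The named genes were, among genes of all 3 targets with shared bases in every pair of lists, the 12 with the highest lowest fold percentile, the 4 highest of each class of 1 or 2 targets, the 4 longest genes with none, genes the study names, and fixed markers and list members, of which a few are not reported here. The members and lists were chosen with earlier results of these data known. Alternatives were a −log10 q of at least 5, lists of equal length, a window of 2.5 kb, the 5′ end alone, summits, wider regions, summed widths and genes without another gene end within 2 kb. Python 3.11.15, numpy 2.4.6, pandas 2.3.3, scipy 1.17.1, statsmodels 0.14.6 and matplotlib 3.10.9 were used, and the code was tested on simulated data.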

Additional observations from a re-analysis of the deposited data

How the results depend on the processing

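Of 43 differences recomputed under the alternatives, 22 lay within the interval of the value reported, 21 did not, and none changed sign. Of 186 shares and medians, 71 lay within the interval reported and 115 did not. Of 56 class sizes, 24 were within 1.5 times the size reported and 32 were not. No target became the largest class with lists of equal length (10469 genes), at a −log10 q of 5 or more (6818) and with wide regions (11093 against 7134 for H3K27ac alone). NONO became the rarest target with equal lengths (2945 genes against 3473 for H3T11ph) and with wide regions (237 against 702). The 1296 genes with all 3 targets became 384 with lists of equal length, 2845 with a window of 2.5 kb, 657 at the 5′ end alone, 593 without genes that have another gene end within 2 kb, and 24 with regions at least 2 times the narrowest width. The surplus of NONO at H3T11ph genes, 16.4 points, became 9.86 with equal lengths and 5.22 with wide regions. The surplus of H3K27ac at H3T11ph genes, 10.7 points, became 18.3 with equal lengths, 19.2 when regions needed a −log10 q of 5 or more, 4.46 with the 2.5 kb window, 16.9 at the 5′ end and 26.9 with wide regions. The surplus of H3K27ac at NONO genes, 7.37 points, became 9.63 with equal lengths, 4.44 with the 2.5 kb window, 10.5 at the 5′ end and 10.6 at that threshold of q. For all 3 targets minus H3K27ac alone, the median length difference of −7.40 kb became −11.3 with equal lengths, −9.90 with the 2.5 kb window and −3.10 without shared gene ends. The difference of 8 neighbours became 5 at the 5′ end, 2 without shared gene ends and 19.5 with wide regions. The difference of 170.5 bp in the widest H3K27ac region became 201 with equal lengths, 213.5 without shared gene ends, 3.5 (−156 to 531) with wide regions and 276.5 as summed width. Wide regions and equal lengths keep fewer regions by construction, and the cause of the other changes was not tested. No paired analysis was possible because every target had a single control library.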
